A study of Gallus gallus with 12 samples.

Results

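The avian beta-defensins and cathelicidins, the main families of antimicrobial host defence peptides of the chicken, were examined in HD11 macrophage-like cells given lipopolysaccharide (LPS) or Se-methylselenocysteine (SeMC). The genes were taken by name, as the rows of the deposited count table whose symbol begins with AvBD, or with CATH followed by B or a digit. This gave 12 of the 16161 genes in the table, namely 8 beta-defensins (AvBD1, AvBD3, AvBD4, AvBD5, AvBD6, AvBD7, AvBD8 and AvBD14) and 4 cathelicidins (CATH1, CATH2, CATH3 and CATHB1). AvBD2 has no row of that name, but RefSeq gives AvBD2 as a synonym of DEFB4A, whose row was analysed beside the 12 and is not counted among them. AvBD9 to AvBD13 were not analysed here. The chicken line HD11, of the macrophage lineage, was transformed by an avian myelocytomatosis virus, so every library comes from a single transformed line. The 3 groups compared had 3 replicates each. Control cells received PBS, the LPS group received 100 ng/mL LPS for 6 h, and the SeMC+PBS group was kept from 12 h before the challenge in medium with 100 µM SeMC and received PBS in place of LPS. The labels do not say that replicates are separate cultures, so the p-values measure the spread between these libraries, which may be technical.

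Beta-defensins are small cationic peptides, folded by disulfide bonds, that bind to and disrupt bacterial membranes, and some also attract immune cells. Birds have beta-defensins but lack the alpha-defensins that mammalian neutrophils store, and their heterophils, the avian counterpart of neutrophils, keep beta-defensins and cathelicidins in granules. Cathelicidins are made as precursors with a conserved cathelin-like domain, from which proteases release a helical peptide that kills bacteria and also binds LPS. In chicken tissues, AvBD1 to AvBD7 are known mainly from bone marrow and the airways, and the higher-numbered genes from liver and the urogenital tract, while CATHB1 was first known from the bursa of Fabricius. LPS is sensed by macrophages through TLR4, and signalling from this receptor to NF-κB is among the known inducers of host defence peptide genes.

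The table held 14972385 to 17024392 counts per library in the Control group, 13451069 to 14018893 in the LPS group and 10656332 to 11531551 in the SeMC+PBS group, so the libraries with SeMC were the shallowest. The series has 12 libraries, of which the 3 labelled SeMC+LPS were left out, because their counts equal the mean of the LPS and SeMC+PBS counts of the same number, rounded down, in 16160 of the 16161 genes and in all 12 of the genes described here. Levels are given in CPM, the counts scaled to a common library total that was adjusted by TMM. They are not corrected for the length of the transcript, so levels of different genes are not compared. All 10 macrophage markers were detected, with a summed level of 2528 to 2585 CPM in Control, 2272 to 2352 in LPS and 2305 to 2424 in SeMC+PBS. Among them CSF1R, the growth factor receptor of macrophages, had 339 to 365 CPM in Control, 49.9 to 56.8 in LPS and 265 to 347 in SeMC+PBS. Of the 6 granulocyte markers 3 were found, and their sum was 2056 to 2107 CPM in Control, 7387 to 7679 in LPS and 2003 to 2099 in SeMC+PBS. Most of that sum in LPS was LECT2 (RefSeq synonym MIM1), a granule protein of immature chicken granulocytes, with 699.9 to 764 CPM in Control and 6324 to 6546 in LPS, while CSF3R, the receptor of the granulocyte growth factor, had 1311 to 1382 and 1029 to 1104 CPM. Of the B cell markers 3 of 5 were found, with sums of 0.531 to 0.721, 0.295 to 0.696 and 1.30 to 2.54 CPM in Control, LPS and SeMC+PBS. Of the epithelial markers 2 of 5 were found, with sums of 2.21 to 3.25, 1.92 to 5.27 and 3.72 to 6.11 CPM. The 3 T cell markers found reached at most 6.49 CPM in sum, the 1 erythroid marker 2.34 and the 1 fibroblast marker, COL1A1, 18.0. No marker found was at 0 in all 9 libraries. In bulk RNA, more cells with a transcript and more transcript per cell cannot be told apart.

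For each comparison the quasi-likelihood test of edgeR was fitted to its 6 libraries, and p-values were adjusted over all genes tested. A gene was called when its FDR was under 0.05 and its fold change over 1.5. In LPS against Control all 12 genes passed the filter on low counts, 8 were called higher and 0 lower, where 6.13% of the 13008 genes tested were called higher and 5.92% lower. At an unadjusted p under 0.05, 0 of the 12 were lower, and DESeq2 and both uses of limma also called 0 lower. AvBD8 and AvBD14 had too few counts in the Control and SeMC+PBS groups to pass that filter between them. AvBD8 therefore entered both LPS comparisons through its LPS libraries, and AvBD14 entered LPS against Control in that way. This does not hold for AvBD14 in LPS against SeMC+PBS, where its mean level was higher with SeMC (1.15 CPM) than with LPS (0.857 CPM). Of the 6 beta-defensins tested in all 3 comparisons 6 were called higher, with AvBD8 in addition, and of the 4 cathelicidins CATHB1 alone. The median log2 fold change was 0.90 over those 6 beta-defensins and 0.43 over the 4 cathelicidins, and -0.0015 over all genes tested. Markers of myeloid cells differed between the same libraries, in both directions. Of the granulocyte markers LECT2 and GFI1 lay above Control in all LPS libraries and CSF3R below it. Of the macrophage markers SPI1 and PTPRC lay above Control, CTSS overlapped with it, and CSF1R, MARCO, LAPTM5, ITGB2, TIMD4 and MRC1 lay below it. The part of these markers in the differences was not tested.

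**Figure D1:**
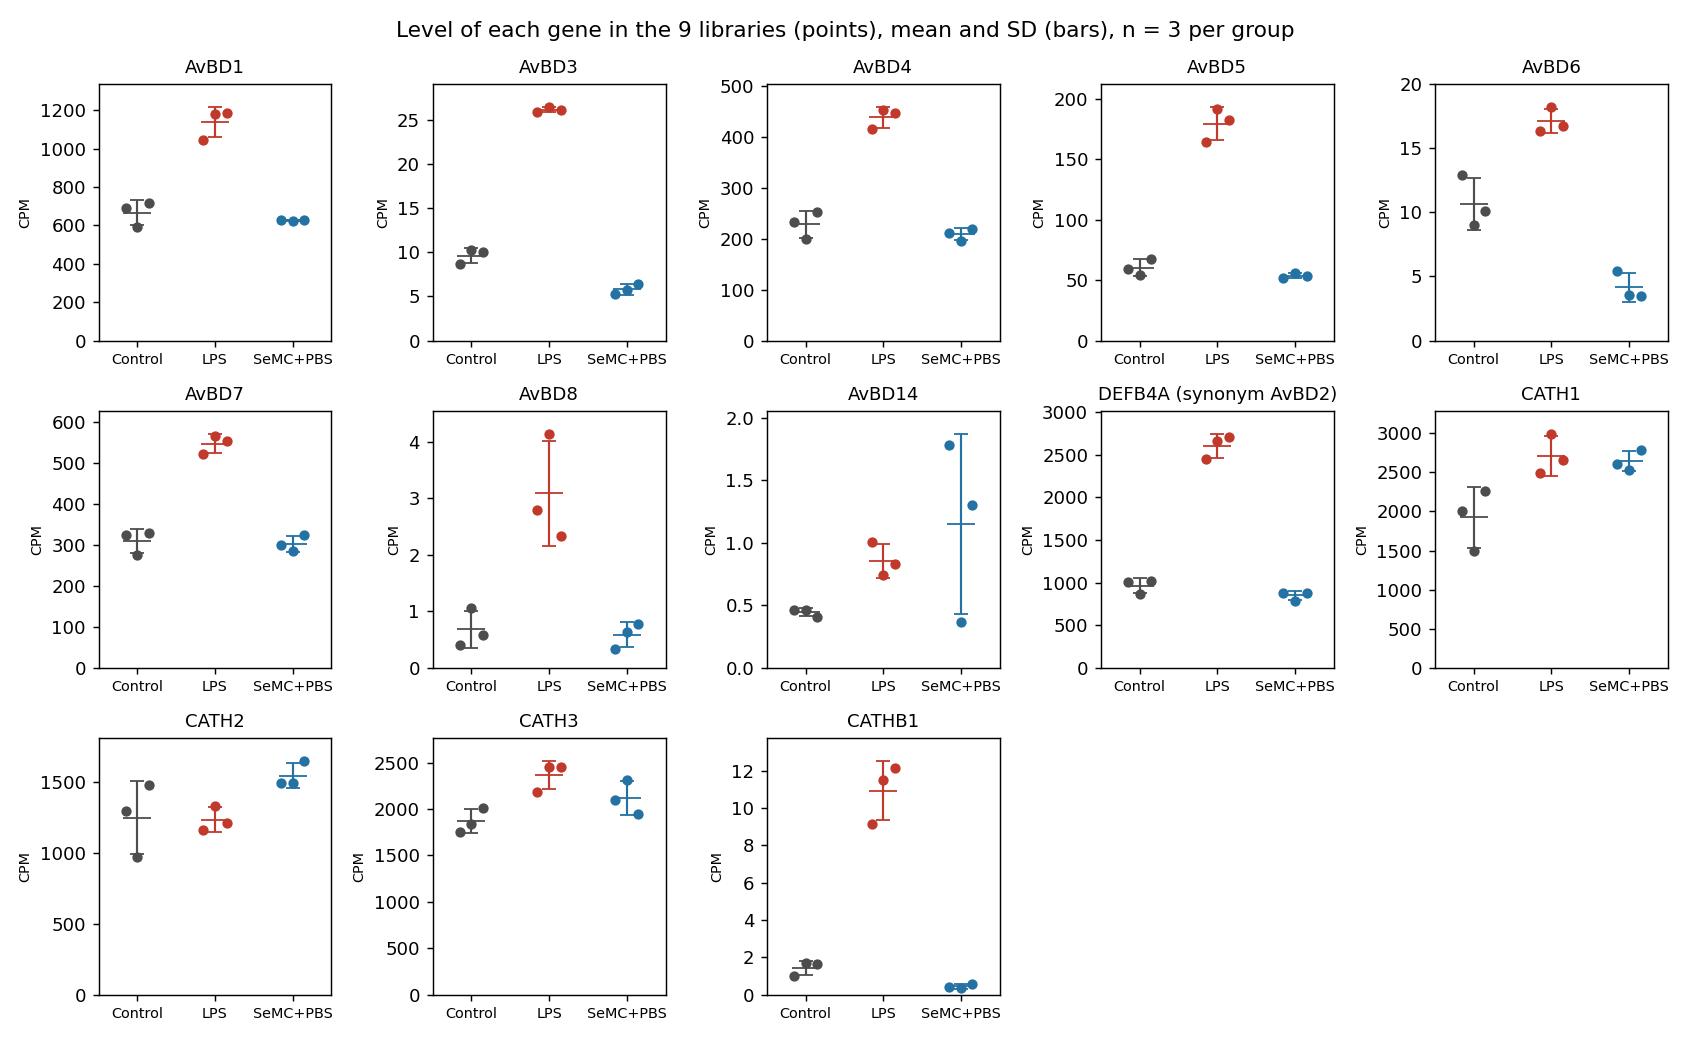
Level of each gene in CPM (vertical axes, linear from 0, a scale of its own in each panel) in the Control, LPS and SeMC+PBS groups; points are libraries, horizontal lines are group means and bars show the SD (n = 3). The LPS libraries lie above all other libraries for AvBD1, AvBD3 to AvBD8, DEFB4A and CATHB1, whereas CATH1 is at 2494 to 2990.4 CPM in LPS and 2537 to 2791 in SeMC+PBS.

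AvBD1, AvBD4 and AvBD7 rose, with fold changes between 1.72 and 1.94. AvBD1, a peptide first purified from heterophil granules, had 691, 592 and 716 CPM in the Control libraries and 1046, 1182 and 1184 in the LPS libraries. The groups did not overlap, and the lowest LPS library lay well above the highest Control library. The fold change of AvBD1 was 1.72 (95% interval 1.56 to 1.91, adjusted p = 3.5e-07). AvBD4 had 233, 199 and 252 CPM in Control and 415, 454 and 447 in LPS, a fold change of 1.94 (95% interval 1.75 to 2.15, adjusted p = 4.9e-08). AvBD7, also isolated from avian leukocytes, had 326, 276 and 328 CPM in Control and 522, 567 and 555 in LPS, a fold change of 1.78 (95% interval 1.63 to 1.96, adjusted p = 6.7e-08). In AvBD4 and AvBD7 too the groups were apart, and in all 3 genes the second Control library was the lowest.

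DEFB4A, AvBD3 and AvBD5 had larger fold changes, of 2.73 to 3.01. DEFB4A, the gene with the synonym AvBD2, had 1009.7, 862 and 1017 CPM in Control and 2446, 2657 and 2708 in LPS, a fold change of 2.73 (95% interval 2.48 to 3.01, adjusted p = 1.7e-10). AvBD3, a defensin known from epithelia such as that of the trachea, had 8.63, 10.2 and 10.01 CPM in Control and 25.9, 26.5 and 26.1 in LPS. Its 3 LPS libraries were nearly alike, with an SD of 0.299 CPM around a mean of 26.2, and all stood above the Control libraries. The fold change of AvBD3 was 2.74 (95% interval 2.34 to 3.21, adjusted p = 5.0e-08). AvBD5 had 58.8, 54.1 and 67.8 CPM in Control and 165, 192 and 182 in LPS, a fold change of 3.01 (95% interval 2.68 to 3.38, adjusted p = 5.4e-10).

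AvBD6, the neighbour of AvBD7 in the genome, had the smallest fold change of the beta-defensins called. It had 12.9, 8.98 and 10.1 CPM in Control and 16.4, 18.2 and 16.8 in LPS, a fold change of 1.62 (95% interval 1.33 to 1.99, adjusted p = 0.00096). The groups did not overlap, but the call depended on 1 library, since without Control replicate 2 the log2 fold change was 0.58 and fell just under the fold-change minimum. AvBD8 was near the limit of detection in Control, with 6, 16 and 10 counts, and reached 36, 56 and 31 counts in LPS. Its fold change was 4.57, with a wide 95% interval of 2.54 to 8.21 (adjusted p = 0.00051). AvBD14 had 7 counts in each Control library and 13, 10 and 11 in LPS. Its fold change of 1.93 was not significant (95% interval 0.995 to 3.76, adjusted p = 0.118), although the groups did not overlap. With limma on quantile-normalized values AvBD14 was called (log2 fold change 0.97, adjusted p = 0.0024), and with DESeq2 and limma-voom it was not (adjusted p = 0.269 and 0.118). XKR5 overlaps AvBD14 in the annotation, and the sources do not state whether counting used strand, so counts of AvBD14 may include reads of XKR5.

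The cathelicidins differed among themselves in their response to LPS. CATHB1 had 15, 26 and 28 counts in Control and 118, 156 and 161 in LPS, that is, 0.996, 1.70 and 1.63 against 9.12, 11.5 and 12.1 CPM. Each LPS library was far above each Control library. The fold change was 7.56 (95% interval 5.44 to 10.5, adjusted p = 7.3e-08), and CATHB1 ranked 84 of the 13008 genes tested by the size of its change. CATH1, the precursor of a fowlicidin peptide, had 2007, 1500.4 and 2269 CPM in Control and 2494, 2990.4 and 2654 in LPS. Its Control libraries spread widely, and the fold change of 1.42 (95% interval 1.21 to 1.67, adjusted p = 0.0019) was significant but under the minimum of 1.5. Its log2 fold change of 0.51 was 0.64 without Control replicate 3, the highest, where CATH1 was called, and 0.35 without Control replicate 2, the lowest. CATH3, a close relative of CATH1, had 1754, 1844 and 2009.8 CPM in Control and 2188, 2451 and 2448 in LPS, a fold change of 1.28 (95% interval 1.17 to 1.40, adjusted p = 0.00038), also under the minimum. With limma on quantile-normalized values neither CATH1 (log2 fold change 0.26, adjusted p = 0.275) nor CATH3 (0.16, adjusted p = 0.222) was significant. CATH2, the cathelicidin stored in heterophil granules, had 1299, 971 and 1480.3 CPM in Control and 1161, 1332 and 1215 in LPS. Here the LPS libraries lay within the range of the Control libraries, with a fold change of 0.999 (95% interval 0.854 to 1.17, adjusted p = 0.992). Because CATH1 and CATH3 have very similar sequences, and the handling of reads that match both is not stated, the division of counts between them is uncertain. RefSeq also lists CATH-3 among the synonyms of CATH1.

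**Figure D2:**
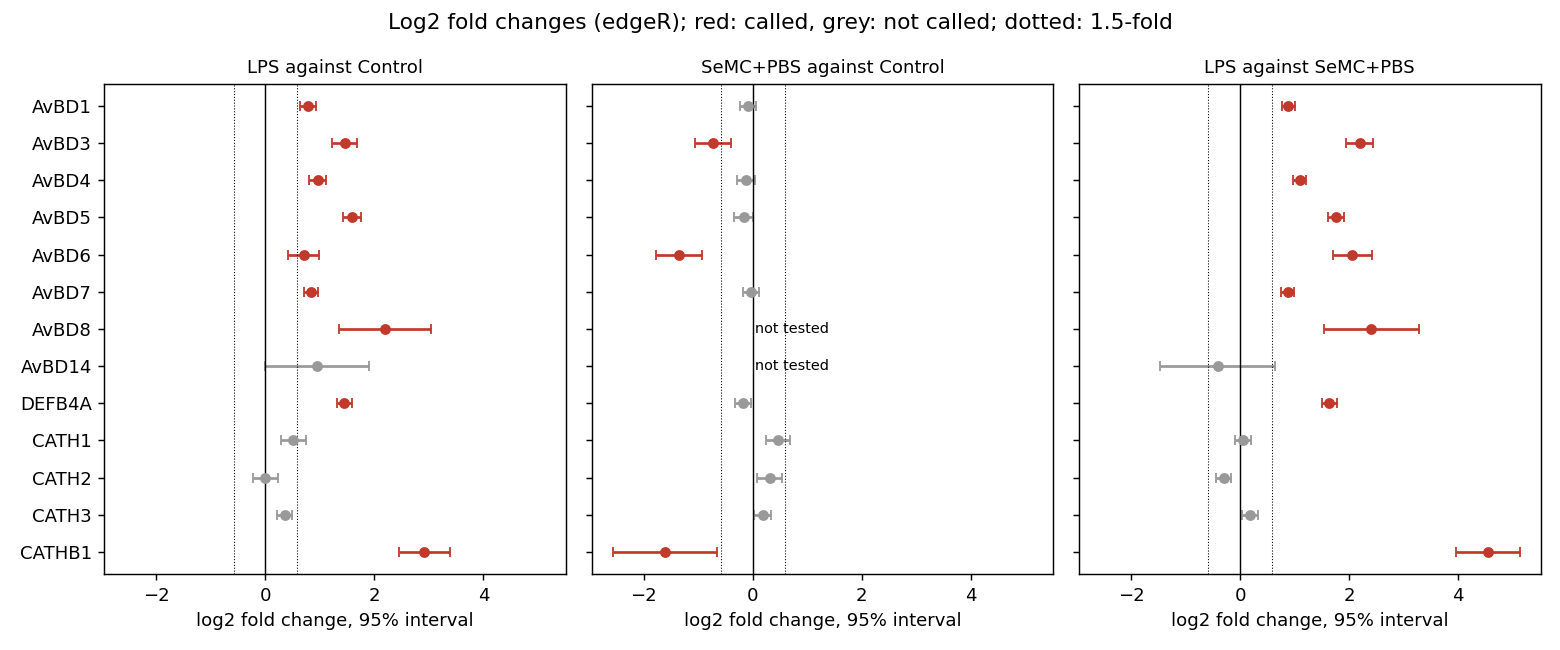
Log2 fold changes from edgeR (horizontal axes) of the 12 genes and DEFB4A in LPS against Control, SeMC+PBS against Control and LPS against SeMC+PBS; bars are 95% intervals, red marks genes called and dotted lines mark a 1.5-fold change. In the first comparison 8 of the 12 are called higher, and in the second AvBD3, AvBD6 and CATHB1 are called lower.

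With SeMC alone 3 genes of low counts fell, and the beta-defensins of higher counts were not called. In SeMC+PBS against Control 10 of the 12 genes passed the filter on low counts, 0 were called higher and 3 lower, where 8.5% of the 13146 genes tested were called higher and 5.58% lower. At an unadjusted p under 0.05, 3 were higher by edgeR, namely CATH1, CATH2 and CATH3, and DESeq2 and both uses of limma also called 0 higher. The 3 genes called lower were AvBD3, AvBD6 and CATHB1. AvBD6 had 5.43, 3.53 and 3.46 CPM in SeMC+PBS, below each of its Control libraries, with a log2 fold change of -1.35 ± 0.202 (standard error) and an adjusted p of 0.00014. CATHB1 was left with 5, 4 and 7 counts, or 0.424, 0.362 and 0.606 CPM, with a log2 fold change of -1.62 ± 0.449 (standard error) and an adjusted p of 0.010. With so few counts the 95% interval of its log2 fold change ran from -2.57 to -0.66. Its SeMC+PBS counts were under the filter minimum of 10, so CATHB1 entered this comparison through its Control libraries. The direction of its call is therefore not independent of the filter. AvBD3 had 5.26, 5.71 and 6.40 CPM, again below each Control library, with a log2 fold change of -0.73 ± 0.157 (standard error) and an adjusted p of 0.0021. Leaving out any 1 library, or using DESeq2 or limma, ended none of these 3 calls. In all SeMC+PBS libraries the summed B cell markers (1.30 to 2.54 CPM), the summed epithelial markers (3.72 to 6.11), the erythroid marker HBBA (1.09 to 2.34) and the fibroblast marker COL1A1 (13.4 to 18.0) lay above all Control libraries. Of the B cell markers JCHAIN alone lay above Control (1.04 to 1.70 against 0 to 0.131 CPM). PAX5 and EBF1 overlapped with Control, as did both epithelial markers, CDH1 and KRT7. The summed macrophage markers lay below all Control libraries (2305 to 2424 against 2528 to 2585 CPM), and the granulocyte and T cell sums overlapped. Among the granulocyte markers LECT2 lay below Control (629 to 644 against 699.9 to 764 CPM) and GFI1 above it (27.1 to 29.3 against 24.3 to 26.1). CSF3R overlapped with Control. The part of these markers in the differences with SeMC was not tested.

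Of the beta-defensins with higher counts none was called in SeMC+PBS against Control. AvBD1 had 626, 623 and 628 CPM in SeMC+PBS, inside the range of the Control libraries, and a log2 fold change of -0.088 (95% interval -0.23 to 0.052, adjusted p = 0.303). AvBD7 had 301, 285 and 324 CPM, a log2 fold change of -0.028 (95% interval -0.18 to 0.12, adjusted p = 0.772). AvBD4 had 212, 195 and 219 CPM (log2 fold change -0.13, 95% interval -0.28 to 0.032, adjusted p = 0.191), and AvBD5 had 51.5, 55.9 and 53.3 (log2 fold change -0.17, 95% interval -0.35 to 0.0089, adjusted p = 0.1203). The lower bounds of these 4 intervals, from -0.35 to -0.18, are all nearer to 0 than the fold-change minimum. DEFB4A had 879, 789 and 876 CPM and a log2 fold change of -0.18 (95% interval -0.33 to -0.033, adjusted p = 0.049), under the fold-change minimum. AvBD8 had 4, 7 and 9 counts and AvBD14 had 21, 4 and 15, too few for the filter. The second SeMC+PBS library of AvBD14 was below all Control libraries in CPM, and the other 2 above them. In the fit of all 9 libraries AvBD14 was tested and called (log2 fold change 1.37, adjusted p = 0.047), and so it was without SeMC+PBS replicate 2 (1.78, adjusted p = 0.012), whereas with no filter on low counts its adjusted p was 0.110.

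CATH1, CATH2 and CATH3 had positive log2 fold changes with SeMC, and none reached a fold change of 1.5. CATH1 had 2607, 2537 and 2791 CPM in SeMC+PBS, above each Control library, a fold change of 1.38 (95% interval 1.18 to 1.61, adjusted p = 0.0031). Its log2 fold change was 0.59 without Control replicate 3, where it passed the minimum, and 0.31 without Control replicate 2. CATH2 had 1493, 1493 and 1647 CPM, a fold change of 1.24 (95% interval 1.06 to 1.45, adjusted p = 0.030), with the lowest SeMC+PBS library just above the highest Control library. Without Control replicate 2 the log2 fold change of CATH2 was 0.15 in place of 0.31 and not significant (adjusted p = 0.101), and with DESeq2 its adjusted p was 0.162. CATH3 had 2094, 2316 and 1948 CPM, overlapping with Control, and a fold change of 1.14 (95% interval 1.02 to 1.26, adjusted p = 0.054), which passed 0.05 with DESeq2 (adjusted p = 0.019) and limma-voom (adjusted p = 0.033). On quantile-normalized values none of these 3 cathelicidins was significant, with adjusted p-values of 0.092 to 0.108. LPS against Control and SeMC+PBS against Control share the Control libraries, so likeness or contrast between them is not independent of those libraries.

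The direct comparison of the treatments does not use the Control libraries. In LPS against SeMC+PBS all 12 genes were tested, 8 were called higher in LPS and 0 lower, where 10.4% of the 12979 genes tested were called higher and 12.5% lower. At an unadjusted p under 0.05, 1 of the 12, CATH2, was lower, and DESeq2 and both uses of limma also called 0 lower. CATHB1 had the widest separation, a fold change of 23.3 (95% interval 15.6 to 35.0, adjusted p = 1.6e-08), and ranked 79 by the size of its change. AvBD8 (5.31-fold), AvBD3 (4.58-fold), AvBD6 (4.18-fold) and AvBD5 (3.40-fold) followed, and DEFB4A was 3.12-fold higher. In SeMC+PBS, CATHB1 (5, 4 and 7 counts) and AvBD8 (4, 7 and 9) were under the filter minimum of 10. Both therefore entered this comparison through their LPS libraries, and their fold changes rest on few counts in SeMC+PBS. AvBD4 (2.13-fold), AvBD1 (1.84-fold) and AvBD7 (1.83-fold) were the least changed of the 8, with adjusted p-values of 4.1e-09, 3.4e-08 and 4.1e-08. CATH2 was lower in LPS than in SeMC+PBS in every library, with a fold change of 0.812 (95% interval 0.74 to 0.892, adjusted p = 0.0012) that did not reach the minimum. CATH1 had a fold change of 1.04 (95% interval 0.939 to 1.15, adjusted p = 0.497), CATH3 of 1.13 (95% interval 1.02 to 1.26, adjusted p = 0.044) and AvBD14 of 0.753 (95% interval 0.361 to 1.57, adjusted p = 0.502). For CATH1 and CATH3 the sign turned when the values were quantile-normalized, with log2 fold changes of -0.17 and -0.14.

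The balance between both families can be read without any scaling between libraries. The AvBD genes had 26.3, 26.5 and 24.1 counts for every 100 counts of the CATH genes in the Control libraries. In LPS the ratio was 37.5, 36.0 and 38.2, and in SeMC+PBS it was 19.4, 18.4 and 19.4, so the 3 groups did not overlap. As a ratio of summed counts it follows the genes with the most counts. In Control replicate 1 AvBD1 had 10406 counts and AvBD3 130, and CATH1 had 30235 and CATHB1 15. The rise of CATHB1 with LPS therefore hardly shows in it. With DEFB4A added to the defensins the ratio was 41.7 to 46.4 in Control, 75.2 to 80.9 in LPS and 30.9 to 33.6 in SeMC+PBS. Together the 12 genes took 0.550% to 0.721% of all counts in Control, 0.774% to 0.892% in LPS and 0.756% to 0.783% in SeMC+PBS. The cathelicidins took 0.435% to 0.581% in Control and 0.633% to 0.658% in SeMC+PBS, whereas in SeMC+PBS the AvBD share of 0.121% to 0.127% lay within the Control range of 0.115% to 0.140%.

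**Figure D3:**
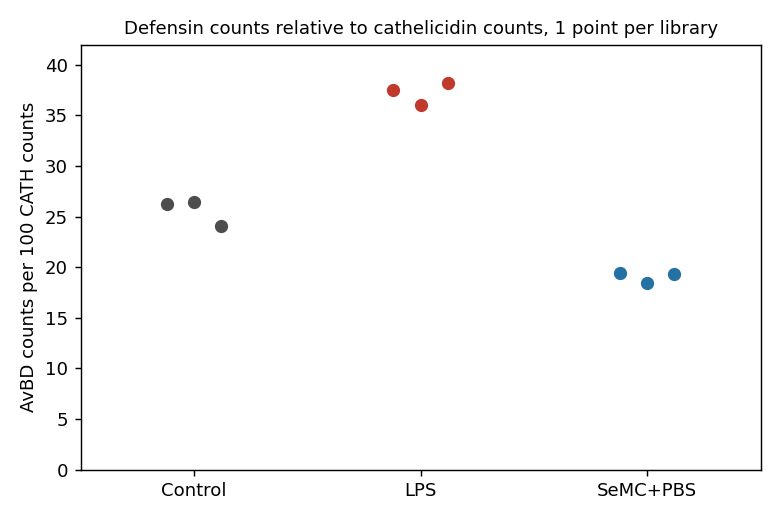
Counts of the 8 AvBD genes for every 100 counts of the 4 CATH genes (vertical axis, from 0), 1 point per library in the Control, LPS and SeMC+PBS groups. The ratio is 24.1 to 26.5 in Control, 36.0 to 38.2 in LPS and 18.4 to 19.4 in SeMC+PBS.

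Within the Control and LPS groups most of the genes were low or high in the same library. Of the 9 with 100 or more counts on average, 7 were lowest in Control replicate 2 and 7 were highest in Control replicate 3, and all 9 were lowest in LPS replicate 1. In SeMC+PBS the lowest library was replicate 1 for 3 genes, replicate 2 for 4 and replicate 3 for 2. Their median coefficient of variation in Control was 11.5%, against 5.85% over all 9896 genes of such counts. CATH2 (20.7%) and CATH1 (20.3%) varied the most in Control. In LPS the medians were 6.38% and 5.49%, and in SeMC+PBS 5.79% and 5.91%, with AvBD1 at 0.448% and AvBD6 at 26.9% as the extremes of the latter. What set Control replicates 2 and 3 apart was not tested.

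Both families lie in compact clusters on GRCg7b. The defensins and DEFB4A lie on chromosome 3 between 107238852 and 107279791, in the order AvBD8, AvBD7, AvBD6, DEFB4A, AvBD1, AvBD3, AvBD5, AvBD4 and AvBD14, and the cathelicidins on chromosome 2 between 4009501 and 4017138, in the order CATH3, CATH2, CATHB1 and CATH1. The response to LPS did not follow this order. AvBD5 (chromosome 3, 107268146 to 107269560) and AvBD3 (107262771 to 107266330) had log2 fold changes of 1.59 and 1.45, between AvBD1 (107258159 to 107260603) with 0.79 and AvBD4 (107271812 to 107273681) with 0.96. CATHB1 (chromosome 2, 4013411 to 4014539), at 2.92, lies between CATH2 (4011425 to 4013199), at -0.0016, and CATH1 (4015652 to 4017138), at 0.51. XKR5 (0.19), which overlaps the end of AvBD14, and TRAM2 (-0.25) and PAQR8 (-0.11), which lie beyond it, were not called in LPS against Control. On the side of AvBD8, CTSB, which encodes the lysosomal protease cathepsin B, was called lower (-0.64), and FDFT1, an enzyme of sterol synthesis, had -0.025. Beside the cathelicidins, LOC124417717 (0.41), KLHL18 (0.051), KIF9 (0.15) and TBRG4 (-0.073) were not called in that comparison. LOC112531990, with a mean of 16.7 counts, was the one neighbour called with SeMC (1.77). It lies inside TBRG4 (4018258 to 4027630) in the annotation, so its counts may include reads of TBRG4.

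**Figure D4:**
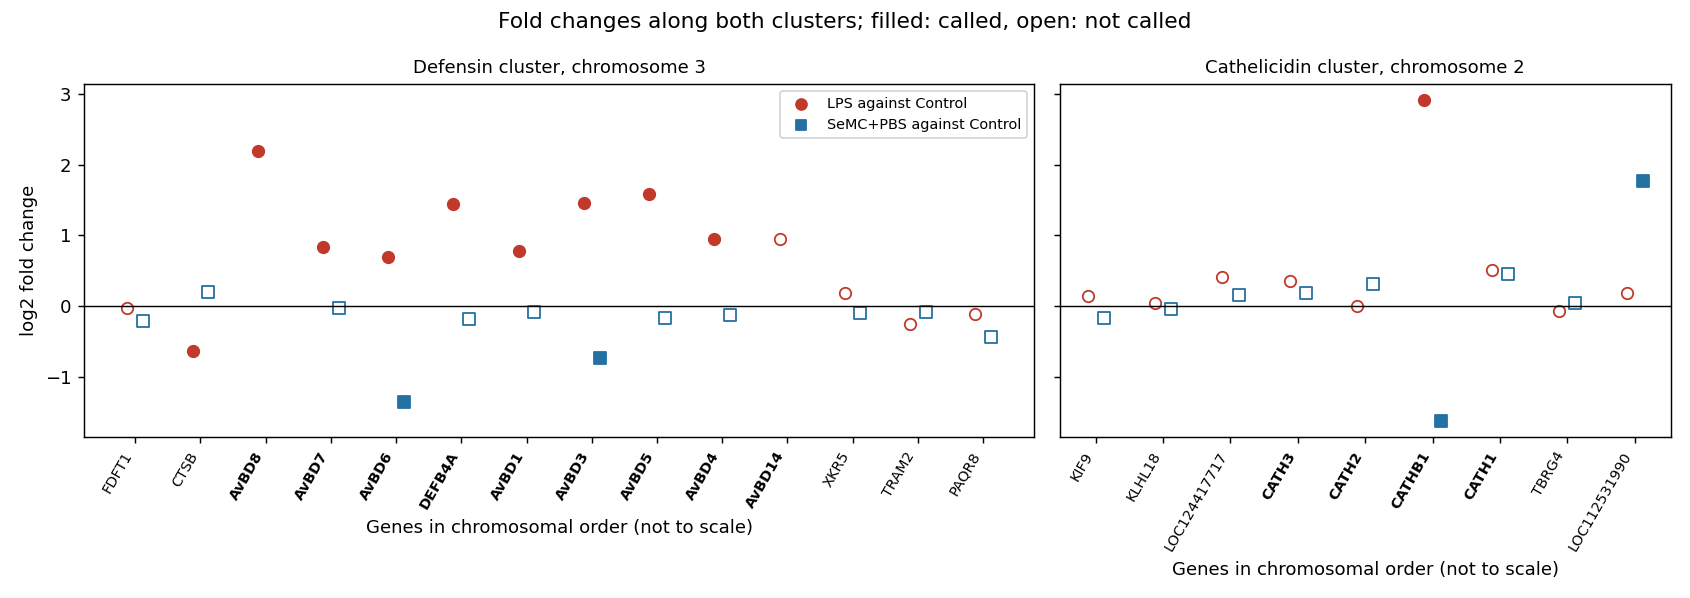
Log2 fold changes (vertical axis) in LPS against Control (circles) and SeMC+PBS against Control (squares) for the genes of both clusters and the neighbours named in the text, in chromosomal order, with the genes described here in bold; filled marks are called and open marks are not. The neighbours lie between -0.64 and 0.41 in LPS against Control, while the defensins lie between 0.70 and 2.19.

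Other antimicrobial and granule proteins moved in both directions with LPS. Of 37 such genes listed, 19 were in the table and 18 were tested in LPS against Control. Of these 9 were called higher and 6 lower, beside 6.13% higher and 5.92% lower over all genes tested. Their median log2 fold change was 0.99. AVD, the biotin-binding protein avidin, was 522 ± 85.6 CPM (SD, n = 3) in LPS and 5.43 ± 0.795 in Control (log2 fold change 6.59). S100A12 (4.41), a calcium-binding protein of phagocytes, and NOS2 (3.57), which makes nitric oxide, also rose. S100A12 had 133, 123 and 140 counts in LPS and at most 8 in Control. EXFABP, a lipocalin that binds bacterial siderophores, had 15, 10 and 10 counts in LPS and 0 in each Control library. ACOD1 (2.43), also called higher, had 36, 51 and 53 counts in LPS and at most 11 in the deeper Control libraries. S100A12, EXFABP and ACOD1 thus passed the filter on low counts through their LPS libraries. The directions of their calls are therefore not independent of the filter. RNASE6 (-1.68), RSFR (-1.45), both ribonucleases, MPEG1 (-1.46), which forms pores in engulfed bacteria and whose gene overlaps DTX4, and SLC11A1 (-0.90), which removes metal ions from phagosomes, fell. With SeMC, 16 of the list were tested, 1 was called higher and 2 lower (median -0.074), beside 8.5% and 5.58% over all genes tested. The genes called were ACOD1 (1.15), which makes itaconate, GNLY (-1.87), the relative of NK-lysin, and OVSTL (-0.63). GNLY had 8, 10 and 6 counts in SeMC+PBS and at most 53 in Control, and passed the filter through its Control libraries. ACOD1 had 12, 16 and 22 counts in SeMC+PBS and at most 11 in the deeper Control libraries, and passed it through its SeMC+PBS libraries. The directions of these 2 calls are therefore not independent of the filter. With DESeq2 the calls of ACOD1 (adjusted p = 0.082) and OVSTL (adjusted p = 0.068) were lost. A list of ovodefensins and other defensin relatives also held DEFB4A, whose values are given above, and its 10 other symbols were not analysed here.

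Genes of the routes known to induce host defence peptides were called in both directions. Of 27 tested receptors and signalling genes, 4 were called higher and 3 lower in LPS against Control (median log2 fold change -0.041), beside 6.13% higher and 5.92% lower over all genes tested. NFKBIZ (1.91), NFKBIA (1.80), JUN (1.08) and NFKB1 (0.82) were higher. NFKBIZ and NFKBIA encode proteins that bind and regulate NF-κB. TLR3 (-1.90), TLR2A (-1.41) and TLR5 (-2.59), receptors for double-stranded RNA, bacterial lipoproteins and flagellin, were lower. TLR5 was near the limit of detection, with 4, 4 and 2 counts in LPS, 9, 7 and 5 in SeMC+PBS and at most 31 in Control. It passed the filter on low counts through its Control libraries. TLR3 had 32, 13 and 22 counts in LPS. TLR4, the receptor of LPS, had 75.3 ± 5.50 CPM in LPS, 62.5 ± 2.26 in Control and 53.6 ± 0.478 in SeMC+PBS (SD, n = 3). It was not called in any comparison, since its changes were under the fold-change minimum. By edgeR they were significant in LPS against Control (0.28, adjusted p = 0.0056), SeMC+PBS against Control (-0.22, adjusted p = 0.019) and LPS against SeMC+PBS (0.51, adjusted p = 6.2e-05). With SeMC 2 of the 27 were called higher and 4 lower (median -0.17), beside 8.5% and 5.58% over all genes tested. The former were NFKB2 (1.36) and FOS (0.76), and the latter TLR5 (-1.35), TLR3 (-0.82), LY96 (-0.61), the partner of TLR4, and TIRAP (-0.60), an adaptor of TLR4. NFKB2, NFKB1, TLR2A, TIRAP, TLR5, LY96, NFKBIZ and JUN overlap other annotated genes.

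Of 14 tested myeloid transcription factors and vitamin D genes, 6 were called higher and 1 lower in LPS against Control (median log2 fold change 0.45). Over all genes tested, 6.13% were called higher and 5.92% lower. ETS2 (1.41), CEBPB (1.06), CEBPA (0.94), RUNX1 (0.81), SPI1 (0.75) and the vitamin D receptor VDR (0.63) rose, and RXRA (-1.04), its partner, fell. CEBPA, CEBPB, RUNX1 and SPI1 are known to drive granule genes in myeloid cells. In SeMC+PBS against Control 0 of the 14 were called by edgeR, DESeq2 or limma (median 0.13). By edgeR 8.5% of all genes tested were called higher and 5.58% lower. At an unadjusted p under 0.05 edgeR had 6 of the 14 higher and 2 lower. CEBPA lay just under the fold-change minimum (log2 fold change 0.57, adjusted p = 1.9e-05). At an FDR under 0.05 RUNX1 (0.29), CEBPD (0.30) and ETS1 (0.19) were also higher by edgeR, and MYB (-0.18) was lower. CEBPB, CEBPD, SPI1, RXRA and MYB overlap other annotated genes. MYB, which is known to drive LECT2 in chicken myeloid cells, had 1324 ± 10.2 CPM in LPS, 1005 ± 46.5 in Control and 886 ± 18.4 in SeMC+PBS (SD, n = 3), and was called in LPS against SeMC+PBS (0.60), though not with limma on quantile-normalized values (0.40). Of 10 tested proteases, receptors and partners of the peptides, 0 were called higher in LPS against Control and 3 lower (median log2 fold change -0.029). The shares over all genes tested were again 6.13% and 5.92%. Among the latter were CTSC (-0.95), a protease that activates granule enzymes, and CTSB. With SeMC 0 of the 10 were called by edgeR, DESeq2 or limma-voom and 1 by limma on quantile-normalized values (median -0.059). By edgeR 8.5% of all genes tested were called higher and 5.58% lower. At an unadjusted p under 0.05 edgeR had 1 of the 10 higher and 1 lower.

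The genes most alike to each member were sought by Pearson's r of log2(CPM + 1) over the 9 libraries, which is a description that includes the differences between the groups. AvBD1, AvBD3, AvBD4, AvBD5 and AvBD7 had r of 0.931 to 0.995 with each other, and AvBD6 had 0.767 to 0.882 with them. CATH1, CATH2 and CATH3 had 0.104 to 0.701 among themselves and -0.585 to 0.716 with the AvBD genes. Among 9217 other genes, AvBD1 was most alike to HN1 (0.998) and CERS2 (0.995), AvBD5 to PLSCR1 (0.998) and G0S2 (0.997), and AvBD3 to NT5E (0.997) and DUSP16 (0.995). AvBD4 was most alike to SOCS3 (0.996), AvBD7 to AvBD4 (0.995), DEFB4A to TM4SF19 (0.998) and AvBD6 to EEF1D (0.994). For CATH1, CATH2 and CATH3 the highest values were lower, with IER3 (0.961), AURKAIP1 (0.954) and CSNK1A1 (0.967).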

How the data were processed

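RNA-seq was analysed for 9 libraries, 3 each of Control, LPS and SeMC+PBS, assigned by the sample titles. According to the methods and labels, single reads were filtered, mapped with HISAT2 to GRCg7b and counted per gene with HTSeq. Versions, annotation release and strand setting are not given in the sources used here. The authors deposited raw counts, without normalization, and 0 columns outside the 12 libraries were present. The SeMC+LPS columns were used only to check that they are means.

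The 12 genes and the gene lists were chosen with earlier results of these data known. Each comparison used edgeR 4.0.16 in R 4.3.3 on 6 libraries, with TMM, filterByExpr (minimum count 10), the quasi-likelihood test and Benjamini-Hochberg adjustment over all genes tested. A gene was called at FDR 0.05 and a fold change of 1.5. CPM were relative to TMM-adjusted totals of the 9 libraries. Alternatives were RLE size factors, DESeq2 1.42.0, limma-voom and limma 3.58.1 on quantile-normalized log2 counts (pseudocount 1), no filter on low counts, a joint fit of the 9 libraries, a block for replicate number, no fold-change minimum and each library left out in turn. The tests were tested on simulated data. Every member is named. From a list, genes that were called could be named, at most 4 in a comparison, with the largest changes and no overlap between groups first. A few others were named after their values were seen. These were TLR4, the remaining genes called, the genes called lower, and the myeloid factors significant with SeMC but not called. For each member with a mean of at least 100 counts, the genes most alike were taken from those with as many counts and a symbol other than LOC. Depth limits AvBD8, AvBD14 and CATHB1, with fewer than 30 counts in each Control library. Coordinates are from RefSeq on GRCg7b, where all 12 symbols were found. Some neighbouring, listed or marker genes are not reported here. Sequences and transcript lengths were not used here. Figures were drawn with matplotlib 3.10.9.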

Additional observations from a re-analysis of the deposited data

How the results depend on the processing

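The number of the 12 genes called in LPS against Control was 7 to 9 and in SeMC+PBS against Control 3 to 4 with each library left out in turn, and 8 throughout in LPS against SeMC+PBS. With no fold-change minimum the number rose from 8 to 10 in LPS against Control, by the addition of CATH1 and CATH3. In SeMC+PBS against Control it rose from 3 to 5, by the addition of CATH1 and CATH2. In LPS against SeMC+PBS CATH3, higher, and CATH2, lower, were added. Over all genes the numbers without the minimum were 4491, 5172 and 7051 in LPS against Control, SeMC+PBS against Control and LPS against SeMC+PBS, against 1567, 1850 and 2971. On quantile-normalized values 48.3% of all genes called in SeMC+PBS against Control were higher, against 60.4%. No scaling moved the median log2 fold change of all genes by more than 0.1. Each of these scalings places the bulk of genes near 0, so these medians cannot show a shift shared by most genes. The sign of CATH2 in LPS against Control turned with limma-voom (0.015) and with the replicate block (0.015), and ran from -0.16 to 0.13 with each library left out. The sign of AvBD7 in SeMC+PBS against Control ran from -0.11 to 0.015 in the same way. In LPS against SeMC+PBS, limma on quantile-normalized values turned AvBD14 (0.21), CATH1 (-0.17) and CATH3 (-0.14), and with each library left out CATH1 ran from -0.014 to 0.12 and AvBD14 from -0.82 to 0.046. None of the values of turned sign was significant, and the cause was not tested. In the fit with the replicate number as a block 8, 3 and 8 of the 12 genes were called, as without it, and 1523, 1844 and 2971 of all genes. Same-numbered libraries did not deviate together (mean correlation across genes -0.062, 0.029 and 0.028), and 0, 4 and 4 of the 6 libraries correlated best with their own number, so the numbers were not taken as pairs. With limma on quantile-normalized values 9 of the 12 genes were called in LPS against Control, with AvBD14 in addition. The low counts of AvBD8 and AvBD14 limit what SeMC+PBS against Control can show, and for AvBD14 the call depended on the libraries in the fit.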
